A study of Macaca mulatta with 43 samples.

Results

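Cohort 5 of the rhesus macaque study was compared on its own, 8 ethanol-drinking animals against 5 control animals. Its arrays were chosen by the cohort and treatment named in the sample descriptions, which gave 13 of the 43 arrays of the series. All were adult males of a series aged 5 to 11 years. The drinkers had 22 h a day of free access to 4% (w/v) ethanol and to water for 1 year, after drinking had been induced by a feeding schedule (schedule-induced polydipsia). The controls drank water and received a maltose dextran solution each day whose calories were matched to those of an ethanol drinker. Blood was drawn less often from controls. Tissue was taken within hours of the last access, so acute and long exposure cannot be told apart. Every array held RNA from medial prefrontal cortex of a single animal, pooled over Brodmann areas 24, 25 and 32, and measured on the Affymetrix Rhesus Macaque Genome Array. The group means and differences used no array of another cohort. All 43 arrays entered the normalization and a check that took the spread from them. Values of cohort 7a are set beside the comparison near the end.

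Medial prefrontal cortex weighs reward against consequence and sends glutamatergic projections to the striatum and amygdala. Ethanol acts directly on GABA-A and NMDA receptors, and long exposure is known to be followed by shifts in synaptic, glial, stress-hormone and immune gene expression in this tissue. A comparison of bulk tissue reads the mixture of neurons, glia and vessels in a sample. Fewer cells of a type and less RNA per cell cannot be told apart in it.

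The arrays read as cerebral cortex. GAD1, the GABA-synthesising enzyme of interneurons, was at 11.88 to 12.26 log2 units over the 13 arrays, the astrocyte glutamate transporter SLC1A2 at 12.25 to 12.99, and myelin basic protein MBP at 12.26 to 13.29. The synaptic protein NRGN lay at 10.85 to 11.30 and the microglial receptor P2RY12 at 9.23 to 9.84. SNAP25, AQP4 and MOG had no probeset with a symbol here, nor did 4 of the 5 genes listed as absent from cortex, so only the cardiac myosin MYH6 could serve as a negative marker. Its most abundant probeset was at 6.77 to 7.13, above the neuronal kinase CAMK2A at 6.30 to 6.75 and the microglial receptor CX3CR1 at 4.30 to 4.70, so a middling value alone does not show that a gene is expressed. Every pair of the 13 arrays correlated at 0.990 or above.

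The RNA integrity numbers that the study lists for the animals of cohort 5 were all above those of cohort 7a. They came from different instruments, an Experion system for cohort 5 and an Agilent Bioanalyzer for cohort 7a. The deposited values carry a measure of their own, the difference between the 3′ and 5′ probesets of beta-actin, which becomes larger as transcripts are cut short. In cohort 5 this difference was 4.54 ± 0.20 log2 units in drinkers (SD, n = 8) and 4.50 ± 0.21 in controls (SD, n = 5), apart by 0.04 (two-sided exact permutation test, p = 0.718). For GAPDH the difference was 2.31 ± 0.16 in drinkers and 2.23 ± 0.17 in controls (exact permutation test, p = 0.419). The 2 groups thus overlapped in both measures. In cohort 7a the actin difference was lower, 0.93 to 1.60 in drinkers and 0.76 to 0.87 in controls, which goes against the integrity numbers. Cohort, extraction kit, integrity instrument and processing run coincide here, so neither measure can rank RNA quality between the cohorts.

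Of 24093 annotated probesets that passed a filter on low values, 1 differed between drinkers and controls at a Benjamini-Hochberg adjusted p under 0.05 in limma, a share of 0.00415%. It belonged to GPATCH2, a nuclear protein with a G-patch domain, and was higher in drinkers. In all, 51.9% of probesets had a higher mean in drinkers. At an unadjusted p under 0.05 there were 1145 probesets, 4.75% of those tested, of which 678 (2.81%) were higher and 467 (1.94%) lower. At an unadjusted p under 0.01 there were 223 (0.926%), 147 of them higher (0.610%) and 76 lower (0.315%). Neither total share was above its threshold, the share expected if no probeset differed. After GPATCH2 and the cap-binding gene NCBP2, every probeset had an adjusted p of 0.937 or above. The order by p described below is therefore a ranking of small shifts, not a list of called genes.

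The shifts were small across the array. The median absolute difference was 0.05 log2 units, and 99% of probesets lay between -0.32 and 0.30. The median standard error of a difference was 0.07, and the median 95% interval reached 0.15 to each side. For 23113 probesets (95.9%) the whole interval lay within -0.5 to 0.5, and for 15925 (66.1%) within -0.25 to 0.25. A total of 541 probesets (2.25%) were past a difference of 0.25, with 243 higher and 298 lower. Past 0.5 there were 44 (0.183%), with 16 higher and 28 lower, and past 1 there were 11, with 4 higher and 7 lower. Without control 12 the number past 0.5 was 70, and without control 14 it was 68. The median within-group SD was 0.13 over all probesets, 0.54 among those past 0.5 and 1.71 among those past 1, so the largest differences stood on probesets that also varied widely within a group.

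**Figure D1:**
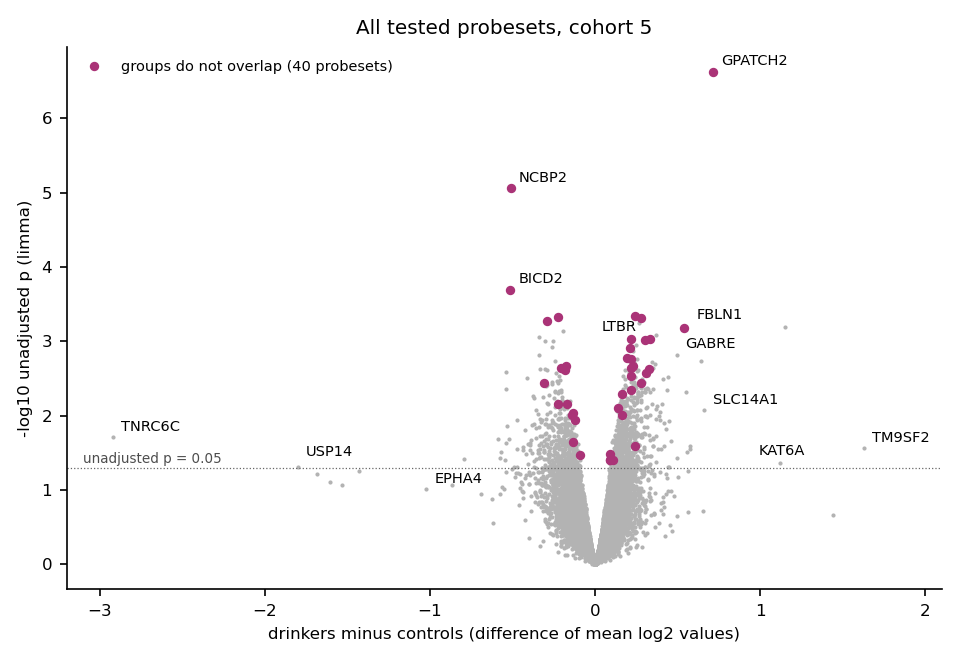
Difference of mean log2 values, drinkers minus controls (x axis), against -log10 of the unadjusted limma p (y axis) for the 24093 tested probesets, with the 40 whose groups did not overlap in purple. GPATCH2 stands above all others at 0.71, NCBP2 follows at -0.51, and of the 11 probesets past a difference of 1, 5 lie above the dotted line (unadjusted p = 0.05), TNRC6C and TM9SF2 just above it.

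In 40 probesets (0.166%) no drinker overlapped any control, 25 with drinkers higher (0.104%) and 15 with drinkers lower (0.0623%). With 8 against 5 arrays this is the most extreme outcome of an exact rank-sum test, with a two-sided p of 0.00155. The share found was close to that, the share expected if no probeset differed, so a lack of overlap alone does not mark a gene. The median absolute difference of these 40 was 0.21, and 12 of them were past 0.25. They named 37 probesets with an approved symbol and 3 with a provisional one. With batch means removed, 94 probesets were separated in this way.

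GPATCH2 read 6.15, 6.38, 6.18, 6.22 and 6.26 in the controls and 7.00, 7.05, 6.82, 6.68, 7.23, 6.99, 7.05 and 6.81 in the drinkers. All drinkers were above all controls. The difference was 0.71 ± 0.08 (SE), 1.64-fold, with an adjusted p of 0.00571 in limma. It was 0.72, 0.77 and 0.66 in the 3 processing batches, where its sign was fixed because all drinkers were above all controls. The probeset stayed called when any single animal was left out (limma, adjusted p of 0.00144 to 0.0396), though these fits share most arrays. With the spread taken from all 43 arrays the adjusted p was 0.983, which ended the call. The other 4 probesets of the gene did not share the difference. One differed by -0.42 (unadjusted p = 0.0155), and the others by 0.13, -0.14 and -0.06. When the probesets of each gene were averaged first, GPATCH2 differed by 0.04 (limma, unadjusted p = 0.430), and no gene was called. The call is one of a single probeset and not of the gene as a whole.

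NCBP2, which encodes the subunit of the nuclear cap-binding complex that holds the 5′ cap of messenger RNA, came next in rank. Its probeset read 5.78, 5.78, 5.83, 5.50 and 5.50 in controls and 5.29, 5.16, 5.30, 4.92, 5.08, 5.17, 5.27 and 5.15 in drinkers. The groups did not overlap, and the difference was -0.51 ± 0.08 (SE), with an adjusted p of 0.105. With age at necropsy as a covariate it was -0.55 with an adjusted p of 0.0432. A second probeset for NCBP2, at a level of 11.1 to 11.2 in the group means, differed by 0.09 in the other direction (unadjusted p = 0.107).

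BICD2, an adaptor that links cargo to the dynein motor, was the third gene in rank. Controls read 8.19, 8.29, 8.09, 8.12 and 8.55, and drinkers 7.82, 7.40, 8.07, 7.52, 7.88, 7.68, 7.85 and 7.65. The lowest control and the highest drinker nearly met, and the difference of -0.51 ± 0.11 had an adjusted p of 0.937. Its 3 other probesets differed by -0.12, -0.06 and 0.00.

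**Figure D2:**
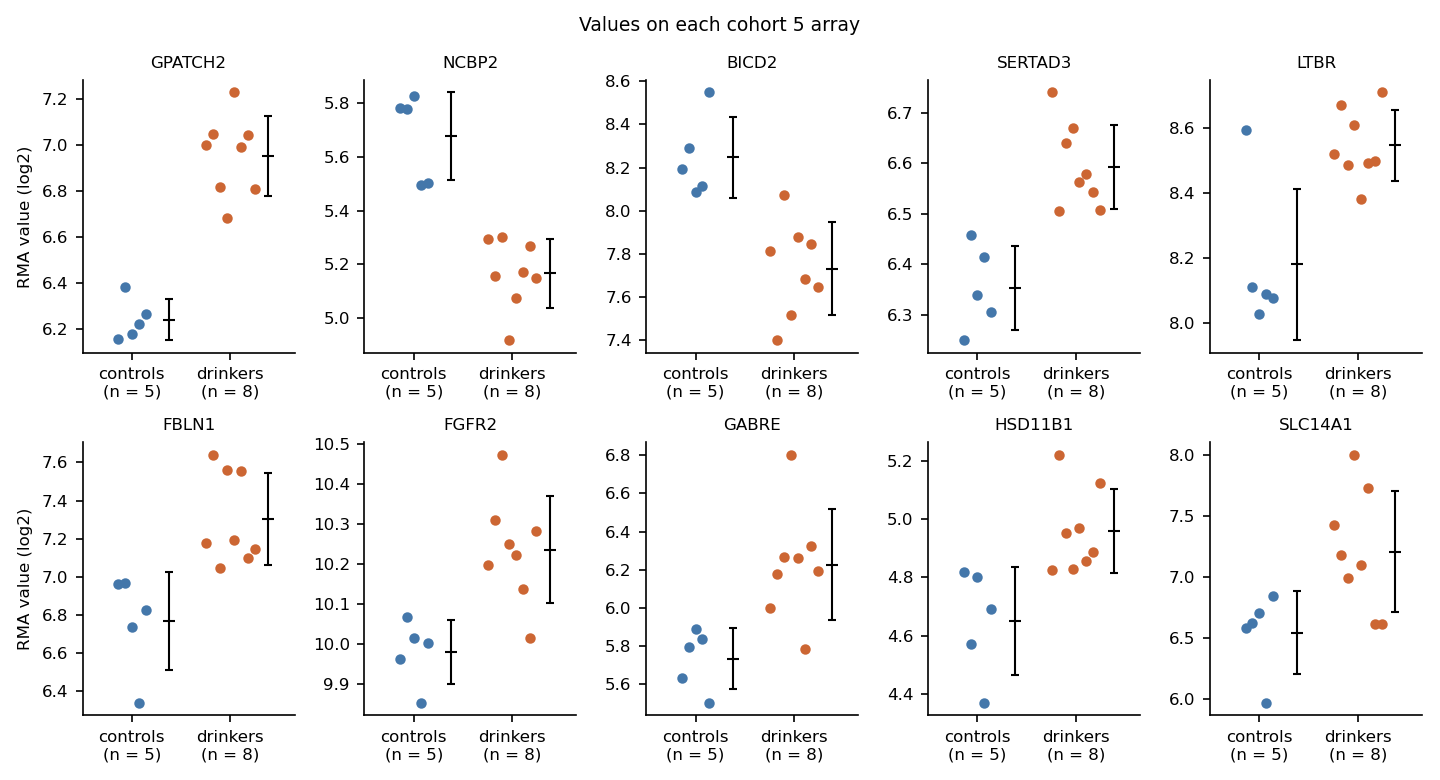
RMA values in log2 units (y axis, a separate range in each panel) on each cohort 5 array for 10 genes, controls on the left and drinkers on the right, with the mean and SD beside the points. GPATCH2 and NCBP2 leave a clear gap between the groups, LTBR has 1 control among the drinkers, and FGFR2, GABRE and SLC14A1 overlap at 1 or more arrays.

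The 12 highest-ranked genes with an approved symbol and higher values in drinkers were GPATCH2, STYX, SERTAD3, MIA2, ABCC2, FBLN1, LTBR, HSDL2, ZNF79, KMT5B, PRKCQ and NEU2. Apart from GPATCH2 their differences were 0.21 to 0.54, and none was called. Several ranked genes in either direction read below the negative marker MYH6, so their values do not show that they are expressed. PRKCQ at 3.58 to 4.08 and ZNF79 at 3.42 to 4.22 lay near the filter on low values. Genes with only a provisional symbol were not ranked here, and 2 of them lay among these by p. LOC699486 read 6.44, 5.47, 4.85, 5.88 and 5.30 in controls and 5.87 to 7.42 in drinkers, overlapping, a difference of 1.15 ± 0.27 (adjusted p = 0.937), larger than that of any of the 12. LOC711975 differed by 0.21 ± 0.05 without overlap. SERTAD3, a transcriptional co-regulator, read 6.25 to 6.46 in controls and 6.51 to 6.74 in drinkers. The difference of 0.24 ± 0.05 was nearly the same in the 3 batches, at 0.24, 0.24 and 0.27. KMT5B, which methylates histone H4 at lysine 20, read 7.53 to 7.72 in controls and 7.76 to 8.21 in drinkers, a difference of 0.30 ± 0.07. Its 2 other probesets lay at higher levels and differed by 0.03 and 0.02. HSDL2, a peroxisomal dehydrogenase-like protein, read 8.67 to 8.82 in controls and 8.85 to 9.10 in drinkers, without overlap.

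LTBR, the lymphotoxin beta receptor of the tumor necrosis factor receptor family, turned on 1 animal. Controls read 8.60, 8.11, 8.03, 8.09 and 8.08, and drinkers 8.52, 8.67, 8.49, 8.61, 8.38, 8.49, 8.50 and 8.71. Control 12 lay within the range of the drinkers, while the 4 other controls lay below all of them. The difference of 0.37 ± 0.09 had an adjusted p of 0.937. Without control 12 it was 0.47, with an adjusted p of 0.0307.

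The 12 highest-ranked genes with lower values in drinkers were NCBP2, BICD2, APEH, KIN, GIMAP7, ZWILCH, CNTN5, TTC23L, SEC14L3, TMEM254, SCML4 and GNGT2. Beyond the first 2 their differences were -0.34 to -0.19. KIN, a DNA- and RNA-binding nuclear protein, read 6.66 to 6.98 in controls and 6.34 to 6.64 in drinkers. APEH, an acylpeptide hydrolase, read 6.49 to 6.61 in controls and 6.23 to 6.49 in drinkers, and its groups all but touched. CNTN5, a contactin that mediates neuronal adhesion, read 6.92 to 7.32 in controls and 6.70 to 7.02 in drinkers and overlapped. Of these 24 genes by rank, 11 were separated between the groups and all 24 kept their sign within each of the 3 batches, though the choice by rank favours such genes. Another probeset of the same gene differed in the same direction at an unadjusted p under 0.05 in 1 of the 21 that had one, FBLN1.

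FBLN1 encodes fibulin 1, a glycoprotein of the extracellular matrix and basement membranes. Its leading probeset read 6.96, 6.97, 6.74, 6.34 and 6.83 in controls and 7.18, 7.64, 7.04, 7.56, 7.19, 7.56, 7.10 and 7.15 in drinkers. All drinkers were above all controls, and the difference was 0.54 ± 0.13, 1.45-fold. The 2 other probesets were also higher in drinkers, by 0.64 ± 0.17 and 0.23 ± 0.07 (unadjusted p = 0.00184 and 0.00356). Within batches the leading probeset differed by 0.32, 0.68 and 0.58. The adjusted p was 0.937 in limma, and 0.929 for the mean of the 3 probesets, which differed by 0.47 ± 0.11.

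Other matrix genes were listed after these values had been seen and are given as a description. Fibronectin FN1 differed by 0.28 ± 0.10 and fibulin 5 (FBLN5) by 0.23 ± 0.11, while elastin ELN differed by -0.07 and fibrillin FBN1 by -0.09. LTBP2, a microfibril protein of the latent TGF-beta binding family, had 1 probeset at 5.50 to 5.64 in controls and 5.68 to 6.20 in drinkers, without overlap, whereas its most abundant probeset differed by 0.01. Genes of leptomeningeal fibroblasts, which surround the cortex and carry much matrix, were spread around 0. Of 16 measured, 9 were higher and 7 lower with a median of 0.01, and decorin DCN differed by 0.04 and lumican LUM by -0.03.

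FGFR2, a fibroblast growth factor receptor of glia, was measured by 7 probesets, all of them higher in drinkers. The leading one read 9.85 to 10.07 in controls and 10.01 to 10.47 in drinkers. Only drinker 23 lay within the range of the controls, and the difference was 0.26 ± 0.07 with an adjusted p of 0.937. Another 2 probesets differed by 0.24 and 0.18 (unadjusted p = 0.00877 and 0.0420), and the remaining 4 by 0.02 to 0.16.

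Over the array, 6031 genes had 2 or more tested probesets. At an unadjusted p under 0.05, 23 of them had 2 or more probesets higher in drinkers and 36 had 2 or more lower. Counts of 3 were reached by FBLN1 and FGFR2 among the higher genes and by CLCN3, B4GALNT1 and ADSS2 among the lower ones, which were named after their values were seen. CLCN3, an endosomal and vesicular chloride-proton exchanger, was lower at all 4 probesets, by -0.17 to -0.15. B4GALNT1, which makes complex gangliosides, was lower at 4 of 4, by -0.31 to -0.02. ADSS2 was not lower throughout. Of its 6 probesets 3 were lower at that threshold, and the others differed by 0.17, -0.09 and -0.01. Probesets of 1 gene share animals and often sequence, so these counts are no independent replicates. In 6 genes, GPATCH2 among them, probesets at that threshold lay on both sides.

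**Figure D3:**
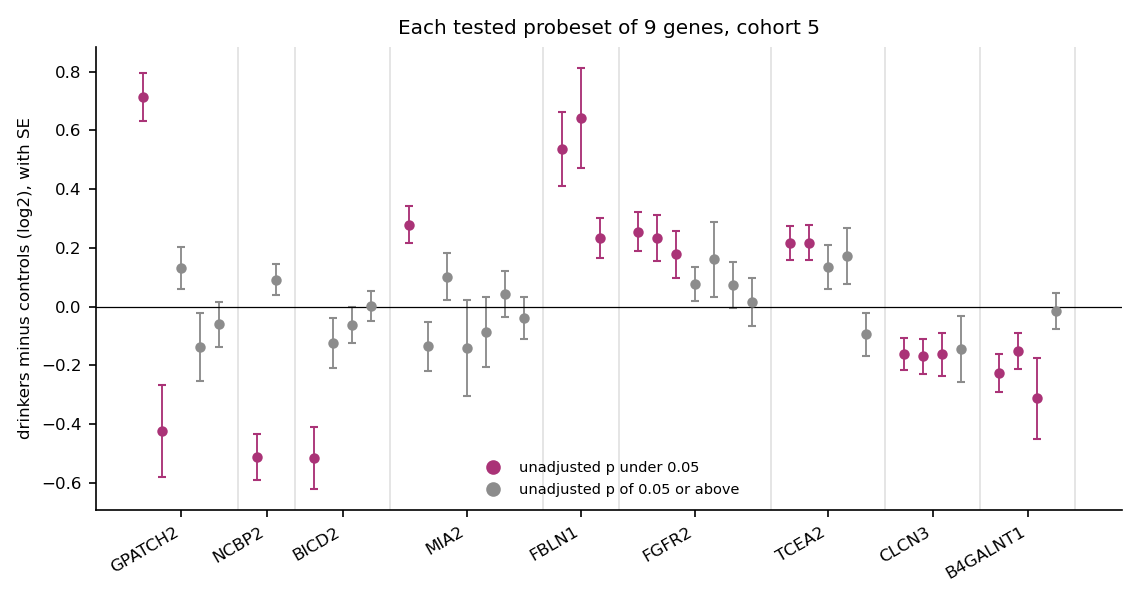
Difference of mean log2 values, drinkers minus controls, with its SE (y axis), for each tested probeset of 9 genes (x axis), in purple where the unadjusted limma p was under 0.05. In NCBP2, BICD2 and MIA2 only 1 probeset is in purple and in GPATCH2 there are 2 of opposite sign, while all 3 of FBLN1 and all 7 of FGFR2 lie above 0 and all 4 of CLCN3 below 0.

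Most of the largest mean differences came from probesets with a wide spread among animals of the same treatment, and the genes in this paragraph and the next were named after their values were seen. Of the 20 largest, 11 had a within-group SD above 1 log2 unit, against 23 (0.0955%) of all tested. The largest, for the microRNA-silencing factor TNRC6C, was -2.92 ± 1.12 (adjusted p = 0.937). Drinkers 17 and 21 and controls 12 to 15 read 9.53 to 10.4, and the other 6 drinkers and control 16 read 4.43 to 4.94. Its 3 other probesets differed by 0.18, 0.12 and 0.06. TM9SF2, a transmembrane protein of endosomes and Golgi, read 8.93 or above in all 8 drinkers and 3 controls and at most 5.66 in controls 13 and 14, a difference of 1.63 ± 0.67. A second TM9SF2 probeset differed by -0.07.

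USP14, a proteasome-bound deubiquitinase, was lower in drinkers at all 5 probesets, by -1.80 to -1.43. Controls read 4.62, 4.50, 9.58, 6.18 and 9.24 at the probeset with the smallest p, and drinkers 7.30, 3.80, 4.52, 4.31, 5.69, 4.27, 5.05 and 5.23. The group means thus rested on controls 14 and 16, and within batches the difference was 0.46, -5.38 and -1.44. A probeset of the MHC class I gene MAMU-A differed by 1.44 ± 1.12 with arrays at 8.66 to 9.42 and at 3.46 to 5.45 in both groups. KAT6A, a histone acetyltransferase, differed by 1.12 ± 0.51 at 1 probeset and by 0.05 and -0.05 at the other two. The axon guidance receptor EPHA4 differed by -1.02 and -0.62 at its 2 probesets, both lowest in drinkers 17, 18 and 22. No probeset past a difference of 1 separated the groups.

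**Figure D4:**
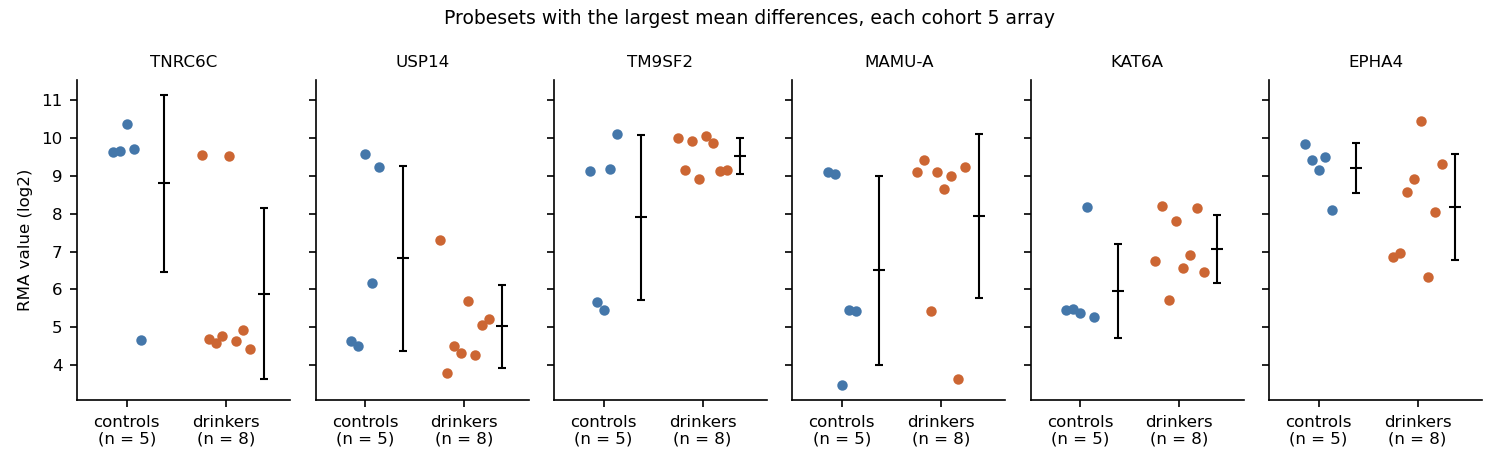
RMA values in log2 units (y axis) on each cohort 5 array for 6 of the probesets with the largest mean differences, with the mean and SD beside the points. TNRC6C, TM9SF2 and MAMU-A fall at 2 separate levels within a group, and the drinkers overlap the controls in every panel.

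Genes were then grouped into 24 lists, with 1 probeset a gene, the one with the highest mean. Over all 13689 genes so represented, 55.0% were higher in drinkers with a median difference of 0.01, 638 (4.66%) reached an unadjusted p under 0.05, 432 of them higher (3.16%) and 206 lower (1.50%), and 122 (0.891%) reached 0.01, with 88 higher (0.643%) and 34 lower (0.248%). The groups did not overlap in 26 genes (0.190%), 18 higher (0.131%) and 8 lower (0.0584%). Over these genes, too, the shares at both thresholds were no higher than expected if no gene differed. None of the list members was called. The lists with the highest medians were those of myelin, astrocytes, the oligodendrocyte lineage and the vessel wall.

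Myelin genes were higher in drinkers in 8 of 10 measured, with a median difference of 0.18, although none reached an unadjusted p of 0.05. UGT8, which makes the myelin lipid galactosylceramide, differed by 0.28 ± 0.17, MBP by 0.26 ± 0.15 and the aspartoacylase ASPA by 0.19 ± 0.10. MBP read 12.3 to 12.8 in controls and 12.4 to 13.3 in drinkers. The mean level of the list was 8.82 to 9.04 in controls and 8.84 to 9.32 in drinkers, with 4 of 8 drinkers above every control. Within batches the median was 0.05, 0.07 and 0.26, and leaving out single animals gave 0.11 to 0.23.

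Genes of the oligodendrocyte lineage were higher in 7 of 8, with a median of 0.09. The neuregulin receptor ERBB3 differed by 0.33 ± 0.15 (limma, unadjusted p = 0.0443), but its other probesets by 0.19, -0.07 and -0.01. The precursor receptor GPR17 differed by 0.18 ± 0.13 and the lineage factor SOX10 by -0.02. In the list of astrocyte genes 10 of 13 were higher, with a median of 0.12 and within-batch medians of 0.04, 0.17 and 0.09. Glial fibrillary acidic protein GFAP differed by 0.24 ± 0.14, and by 0.01 at a less abundant probeset. The calcium-binding S100B differed by 0.23 ± 0.14, while the glutamate transporters SLC1A2 and SLC1A3 differed by -0.11 and -0.05.

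SLC14A1, the urea transporter of astrocytes, had the largest difference among all list members with an unadjusted p under 0.01. It read 6.58, 6.62, 6.71, 5.97 and 6.85 in controls and 6.61 at the lowest, 7.14 at the median and 7.73 at the second highest in drinkers. Of the 8 drinkers, 6 were above every control and the other two lay within the control range. The difference was 0.66 ± 0.22, 1.58-fold, with an adjusted p of 0.937, and within batches it was 0.64, 0.59 and 0.61.

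Vessel wall genes were higher in 11 of 12, with a median of 0.08. VE-cadherin CDH5 differed by 0.17 ± 0.07 (limma, unadjusted p = 0.0234), and by -0.07 at a less abundant probeset. Von Willebrand factor VWF differed by 0.19 ± 0.13. The smooth muscle genes TAGLN and MYH11 differed by 0.24 ± 0.27 and 0.14 ± 0.34, within their error. The mean level of the vessel wall list overlapped between the groups, at 6.94 to 7.10 in controls and 6.95 to 7.46 in drinkers. Of the microglial genes 6 of 14 were higher, with a median of -0.02 and TREM2 at 0.12 ± 0.08 as the highest. Excitatory neuron genes were split 5 to 4 with a median of 0.00, and interneuron and neuropeptide genes 4 to 6 with a median of -0.02. Among the latter GAD2 differed by 0.24 ± 0.11 and PVALB by 0.30 ± 0.19, against -0.27 ± 0.14 for VIP. Whether a larger share of white matter or vessels in some samples took part in the glial and vascular medians was not tested.

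**Figure D5:**
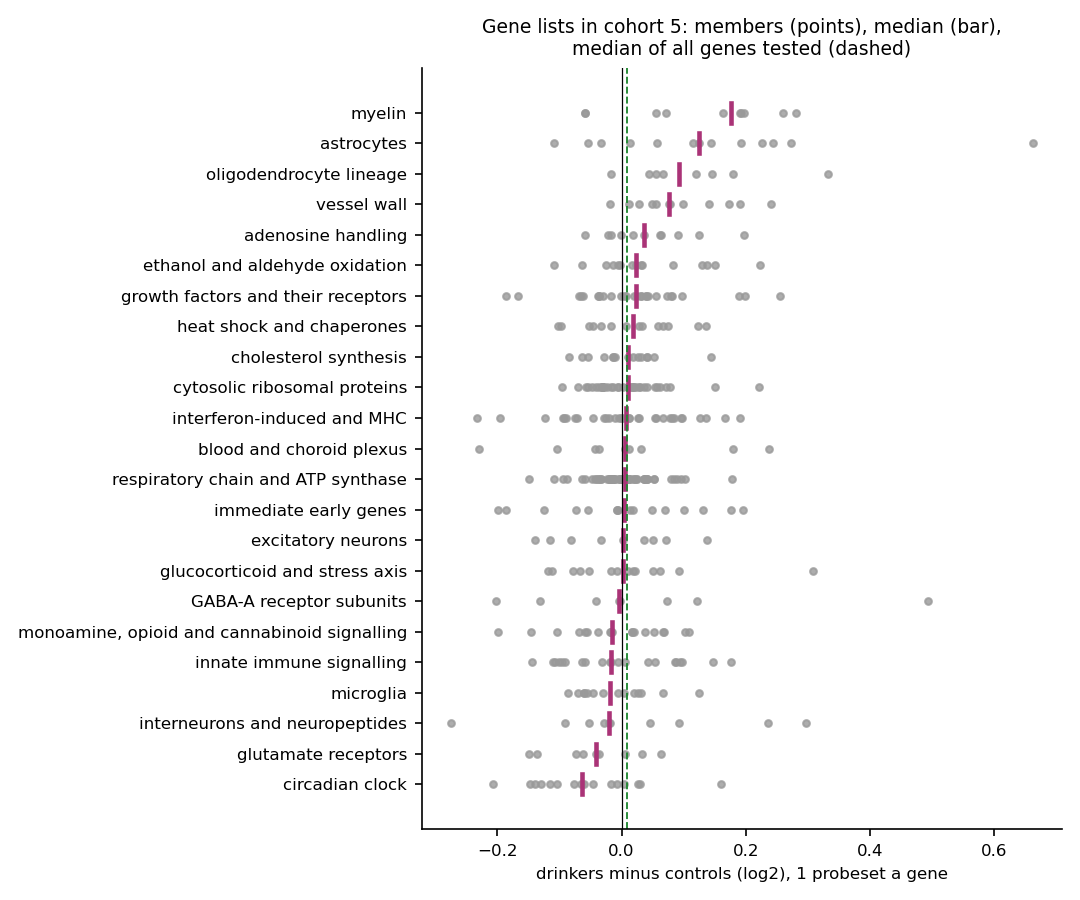
Difference of mean log2 values, drinkers minus controls (x axis), for the members (points) and the median (purple bar) of 23 gene lists (y axis), with the median of all 13689 genes as a dashed line at 0.01. Myelin, astrocyte, oligodendrocyte lineage and vessel wall lists have the highest medians, from 0.18 to 0.08, and the circadian clock list the lowest, at -0.06.

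Of 8 GABA-A receptor subunits, GABRE and GABRA2 passed an unadjusted p of 0.05, in opposite directions. GABRE, the epsilon subunit, read 5.64, 5.80, 5.89, 5.84 and 5.50 in controls and 5.78 at the lowest, 6.23 at the median and 6.80 at the highest in drinkers. Only drinker 22 lay within the control range, and the difference was 0.49 ± 0.13, 1.41-fold (adjusted p = 0.937). GABRE read no higher than the range of the negative marker MYH6, at 6.77 to 7.13, so these values do not show that it is expressed. GABRA2, the alpha 2 subunit, differed by -0.20 ± 0.08 (unadjusted p = 0.0213). Glutamate receptor genes were lower in 6 of 9 with a median of -0.04, from GRM7 at -0.15 to GRIN3A at 0.06. The AMPA receptor subunit GRIA4 had a low probeset that differed by -0.22 ± 0.07, but its most abundant probeset differed by -0.07 ± 0.10. Among enzymes that oxidise ethanol and aldehydes, 9 of 15 were higher with a median of 0.02, ALDH1B1 differed by 0.14 ± 0.05 (unadjusted p = 0.0155), and ALDH2 and catalase CAT differed by 0.08 and -0.01.

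Stress axis genes were split 7 to 7 with a median of 0.00. The exception in rank was HSD11B1, the enzyme that regenerates cortisol within cells. It read 4.82, 4.57, 4.80, 4.37 and 4.69 in controls and 4.83, 5.22, 4.95, 4.83, 4.97, 4.86, 4.89 and 5.12 in drinkers. These values lay below those of the negative marker MYH6, at 6.77 to 7.13, so they do not show that HSD11B1 is expressed. The lowest drinker was just above the highest control, with a difference of 0.31 ± 0.09 and an adjusted p of 0.937. Its partners in the same pathway did not follow, with the glucocorticoid receptor NR3C1 at 0.01 and its targets FKBP5 at -0.07 and TSC22D3 at 0.02.

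Circadian clock genes were lower in 12 of 16 measured, with the lowest median of all lists, -0.06. PER2, a repressor of the clock, differed by -0.21 ± 0.08 (unadjusted p = 0.0165), while PER1, PER3 and CLOCK differed by -0.02, 0.03 and -0.01. When probesets of a gene were averaged the median was -0.03. Immediate early genes, which neurons switch on within minutes of activity, were split 8 to 8. FOSL2 differed by 0.20 ± 0.07 and the growth factor BDNF by -0.19 ± 0.10, and FOS, ARC and JUNB by -0.07, 0.07 and -0.01. EGR2 differed by -0.15 ± 0.05 at 1 probeset and by -0.20 ± 0.18 at the more abundant one.

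The remaining lists had medians between -0.02 and 0.04. Respiratory chain and ATP synthase genes were split 30 to 28 and cytosolic ribosomal protein genes 20 to 17, and none of the 58 in the first list reached an unadjusted p of 0.05. Cholesterol synthesis genes were split 8 to 7. SREBF2, their transcriptional regulator, differed by 0.17 ± 0.05 at 1 probeset and by -0.14 to 0.05 at 3 others. Interferon-induced and MHC genes were split 17 to 15, with the antigen peptide transporter TAP2 at 0.19 ± 0.07. In the blood and choroid plexus list the neutrophil protein S100A8 differed by 0.18 ± 0.07 and the globin HBB by -0.23 ± 0.16. Adenosine deaminase ADA differed by 0.20 ± 0.09.

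A list of 17 genes that had been named for the whole series was read in cohort 5. None of the 17 was called in cohort 5, and 14 of them differed by less than 0.3. TSR2, a ribosome assembly factor, was 7.33 to 7.66 in controls and 7.47 to 7.93 in drinkers, a difference of 0.28 ± 0.09. LY6K, PON3 and USP14 differed by -0.79 ± 0.35, -0.46 ± 0.31 and -1.80 ± 0.84, each with a wide spread in both groups. MAP6D1, AKR1D1 and ABCA8 differed by 0.03 ± 0.06, 0.13 ± 0.08 and 0.11 ± 0.09.

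Cohort 7a, with 8 drinkers and 4 controls, was the only other cohort with at least 4 controls, and the same probesets were compared there. The median absolute difference between its drinkers and controls was 0.15, against 0.05 in cohort 5, and 1614 probesets were past 0.5, against 44. In cohort 7a 7313 probesets (30.4%) were called. The difference between the 2 contrasts was itself called for 3245 probesets (13.5%) in limma, a count that was 2138 without control 28 of cohort 7a. In cohort 7a the actin 3′ minus 5′ value was higher in drinkers than in controls by 0.45 (exact permutation test, p = 0.00202, the smallest it can give), and the part of this in the contrast was not tested.

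Of the 17 series genes, 10 were called in the interaction at the probeset with the smallest p in cohort 5, and 13 at the most abundant probeset. These genes had been named from a series that includes cohort 7a, so a gap between the cohorts on them is built into their choice. MAP6D1 was 8.46 to 9.13 in cohort 7a controls and 10.6 to 11.3 in its drinkers, against 11.4 to 11.7 and 11.4 to 11.8 in cohort 5. The 2 contrasts differed by -2.06 ± 0.16 (adjusted p = 1.2e-08). For the steroid reductase AKR1D1 they differed by -1.36 ± 0.16 and for the GABA-synthesising GAD2 by -1.27 ± 0.19. Of the 24 genes ranked highest in cohort 5, 8 had the same sign in cohort 7a, namely 2 of the 12 higher and 6 of the 12 lower ones. In cohort 7a 8 of the 24 were called, 3 with the same sign, close to the 30.4% called over all probesets. At the probesets ranked in cohort 5, GPATCH2 was lower in the drinkers of cohort 7a, by -0.41 ± 0.15 (limma, adjusted p = 0.0379). So was HSDL2, by -0.68 ± 0.09 (limma, adjusted p = 2.98e-06). MIA2, a protein of endoplasmic reticulum exit sites, was higher in both cohorts at the leading 1 of its 7 probesets. The difference was 0.28 ± 0.06 in cohort 5 and 1.19 ± 0.10 in cohort 7a. Its other probesets differed by -0.14 to 0.10 in cohort 5, and only 2 of them were higher in drinkers. At their leading probesets FBLN1 differed by -0.11 ± 0.15 and FGFR2 by -0.06 ± 0.07 in cohort 7a. Myelin genes had a median of -0.23 in cohort 7a against 0.18 in cohort 5. In the interaction 1 of 10 was called at the most abundant probeset, against 13.5% of all probesets. Medians of other lists were as low in cohort 7a, at -0.23 for innate immune signalling, -0.22 for interferon-induced and MHC genes, -0.21 for microglia, -0.19 for ribosomal proteins and -0.17 for the respiratory chain. Since the 24 genes were ranked by their cohort 5 values, their interaction tests lean on the same values.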

How the data were processed

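The deposited values are log2 RMA values (affy package), background-corrected and quantile-normalized by the authors over all 43 arrays, with no batch adjustment. Of 52865 probesets, 158 controls, 27390 without a symbol in the platform table and 1224 under 3.5 in at least 80% of the 13 arrays were left out, which left 24093 (23758 with 1 symbol, 335 with several, which were not named, nor were provisional LOC symbols in the ranking). Drinkers and controls were compared with limma 3.58.1 in R 4.3.3, tested on simulated data, with Benjamini-Hochberg adjustment over all tested probesets. The number of arrays limits the precision. Batches were recovered by setting the deposited values against the batch-adjusted values of the study's supplement. Cohort 5 fell into 3 of them, with 2, 1 and 2 controls and 3, 3 and 2 drinkers. Named genes were, with the probeset of the smallest p, the 12 first by p and the 6 largest separated in each direction, list members separated or with unadjusted p under 0.01, and the 17 series genes. Members, lists and the rule were chosen with earlier results of these data known. Sequences and coordinates were not used here.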

Additional observations from a re-analysis of the deposited data

Results flagged for a closer look

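Among 104 groups of values of the named genes, 10 held an array that stood apart from the rest of its group, and chance alone sets apart about 1 group in 20. Among controls these were APEH at 6.61 (control 14), LTBR at 8.60 (control 12), HSDL2 at 8.67 (control 15), ZNF79 at 3.42 (control 14) and NEU2 at 5.25 (control 16). Among drinkers they were APEH at 6.49 (drinker 20), GIMAP7 at 8.01 (drinker 23), SREBF2 at 6.66 (drinker 19), LY6K at 6.71 (drinker 18) and TNFRSF25 at 6.68 (drinker 23).

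For 24 of 52 named genes the drinker minus control difference of cohort 5 was apart from that of cohort 7a at an adjusted p under 0.05 in limma. Over all tested probesets the share was 13.5%. The named genes were chosen by their cohort 5 values or from a series that includes cohort 7a. A gap between the cohorts is thus in part built into their choice. Among genes ranked or listed in cohort 5, the cohort 5 difference was above that of cohort 7a by 1.12 for GPATCH2, 0.90 for HSDL2, 0.70 for KMT5B, 0.65 for FBLN1, 0.64 for ZNF79, 0.52 for PRKCQ, 0.38 for NEU2, 0.37 for SERTAD3, 0.36 for ABCC2 and 0.31 for FGFR2. The value was -0.91 for MIA2, -0.60 for KIN, -0.55 for GRIA4 and -0.26 for GIMAP7. Among the genes named for the whole series it was -2.06 for MAP6D1, -1.63 for TSR2, -1.41 for ABCA8, -1.36 for AKR1D1, -1.27 for GAD2, -1.04 for DCAF4L1 and -0.88 for TNFRSF25, and it was 0.83 for FAM162A, 0.71 for TUBD1 and 0.54 for SPCS2. Extraction kit and processing run differ between these cohorts as well, and their parts cannot be told apart.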

How the results depend on the processing

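The number of called probesets was 0 with the spread from all 43 arrays, 0 by the exact rank-sum test, whose smallest possible p of 0.00155 cannot pass the adjustment here and so says nothing of stability (1070 at unadjusted p under 0.05), and 0 for means over the probesets of a gene, a setting chosen after seeing the data (678 of 13689 genes at unadjusted p under 0.05). It was 2 with age as a covariate, where NCBP2 joined GPATCH2, and 1 to 2 when single animals were left out, where LTBR joined without control 12. At unadjusted p under 0.05 there were 732 probesets with the spread from all 43 arrays and 2360 when probesets without a symbol were added, which raises the number tested. Past a difference of 0.5 there were 102 with those probesets added, and 39 to 70 without single animals. Separated probesets numbered 94 with batch as a block and 51 to 109 without single animals, where fewer arrays have to be apart. The count of differences from cohort 7a was 2138 to 3770 without single animals. The actin difference ran from -0.0225 to 0.104 without single animals and reversed without control 13 (-0.0225) and without drinker 22 (-0.0152), and that of MAP6D1 ran from -0.00118, reversed without drinker 17, to 0.0586. Otherwise the cause was not tested. Every list median kept its sign or moved by less than the spread between animals. Most medians were small, so such a rule is easily met and says little of their stability. No paired analysis was made because the sample labels do not say which control was matched to which drinker. The 13 arrays limit what can be seen, with a median 95% interval of 0.15 to each side.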
